A study of Mus musculus with 25 samples.

Results

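The ventral Nkx homeobox genes were examined in the mammillary neuroepithelium, the wall of the caudal hypothalamus that later forms the mammillary body, of Lhx5 mutant and wild-type mouse embryos. The list held 6 genes, Nkx2-1, Nkx2-2, Nkx2-4, Nkx2-9, Nkx6-1 and Nkx6-2, of which 5 had a transcript cluster (a set of array probes read as 1 value) that carried their symbol alone, among 18820 named genes and 28940 clusters tested. Nkx6-2 shared its cluster with a neighbouring gene, Inpp5a, and is given no value here. The members were chosen by name and not by their levels. Each had a single cluster, so no choice between clusters was made.

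Total RNA of 25 samples was hybridised to Affymetrix gene arrays, 1 array per sample, and levels are log2 RMA values, a scale on which a difference of 1 is a doubling. The mutant group (KO in the labels, 13 arrays) came from C57BL/6 embryos at E10.5 that were homozygous for a floxed Lhx5 allele. That allele carries loxP sites in introns, was not exposed to Cre recombinase and is described by the study as a hypomorph, so the coding exons are present. The wild-type group (WT, 12 arrays) came from embryos of the same strain and age, and the labels call all samples biological replicates. Lhx5 transcript was at 7.82, 7.84 and 8.11 in mutant arrays 11 to 13, ran from 7.43 through a median of 7.96 to 8.60 in mutant arrays 1 to 10 and from 7.67 through 7.89 to 8.38 in WT. The groups overlapped, and since the allele lacks no exon this level is no check of the labels.

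Mutant arrays 1 to 10 and mutant arrays 11 to 13 did not form a single set. Over 35542 probe sets the means of these 2 sets were equal to a median absolute gap of 1.33e-06, so mutant arrays 1 to 10 add no evidence of the direction of a difference. The sources do not say whether either set was adjusted to the other. Every difference was fitted in limma with a batch term for mutant arrays 1 to 10 and rests on mutant arrays 11 to 13 (n = 3) against WT (n = 12). A batch difference between those 3 arrays and WT cannot be told apart from genotype. A fit with genotype alone gave the same differences with smaller standard errors (SE). For the members, its adjusted p stands beside the main one where the call differs. For other genes, called refers to the fit with the batch term. Some genes not called there passed with genotype alone, such as Foxb2 (limma adjusted p = 1.02e-05) and Corin (adjusted p = 0.00185). Among the markers of the tissue, Foxb1, a marker of the mammillary region, lay between 6.13 and 6.99 in mutants and between 6.36 and 7.22 in WT, above the median level of all clusters (4.69). The hypothalamic factors Nr5a1, Hmx2 and Hmx3 lay below that median in all groups. The hindbrain and spinal cord list (8 Hox and related genes), averaged on each array, had means between 3.12 and 3.26 in mutants and between 3.08 and 3.35 in WT.

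Ventral Nkx proteins are homeodomain transcription factors that pattern the ventral part of the neural tube. Sonic hedgehog (Shh), secreted by the notochord and floor plate, induces them at different thresholds, and in the spinal cord they repress dorsal regulators such as Pax6 through Groucho corepressors. In the forebrain, Nkx2-1 and its close relative Nkx2-4 mark the hypothalamus, whereas Nkx2-2 follows the boundary of Shh expression and Nkx2-9 and Nkx6-1 are found beside the floor plate of more caudal levels.

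Promoter sequence is shown for the 3 members whose mean was lower in mutants, since they are the members on which the comparison of genotypes turns. The windows are the 250 bases before a start annotated in RefSeq (GRCm38.p6, minus strand for each). The Nkx2-1 and Nkx6-1 windows directly adjoin the gene spans given below. The Nkx2-2 and Nkx2-9 windows lie inside those spans, and the Nkx2-4 window overlaps the end of its span. For Nkx2-2, Nkx2-9 and Nkx2-4 the sequence is thus not wholly upstream of the gene as given. The capitals mark the single motif match found in any of the 5 members.
Nkx2-4 (chr2:147085346-147085595): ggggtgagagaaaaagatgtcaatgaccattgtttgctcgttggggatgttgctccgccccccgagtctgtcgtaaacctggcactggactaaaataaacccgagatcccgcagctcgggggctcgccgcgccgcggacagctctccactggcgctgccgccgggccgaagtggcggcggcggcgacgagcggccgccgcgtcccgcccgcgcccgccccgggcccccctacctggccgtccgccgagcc
Nkx2-1 (chr12:56536909-56537158): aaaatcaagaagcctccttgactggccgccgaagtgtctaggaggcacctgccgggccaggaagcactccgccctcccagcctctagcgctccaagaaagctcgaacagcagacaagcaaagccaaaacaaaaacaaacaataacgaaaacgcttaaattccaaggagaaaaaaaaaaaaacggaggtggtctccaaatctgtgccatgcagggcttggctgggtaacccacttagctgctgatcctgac
Nkx2-2 (chr2:147186403-147186652): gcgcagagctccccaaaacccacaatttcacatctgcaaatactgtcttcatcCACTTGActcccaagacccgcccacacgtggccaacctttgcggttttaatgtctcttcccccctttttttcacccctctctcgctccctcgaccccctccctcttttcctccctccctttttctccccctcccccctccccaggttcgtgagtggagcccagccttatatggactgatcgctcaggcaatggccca

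The Nkx2-4 window held 70.4% G and C, a share above that of 91.2% of all 32851 windows of this length, whereas Nkx2-1, its relative, had 50.8%, close to the median of 52.4%. The Nkx2-2 window had 56.4%, the Nkx2-9 window 61.6% and the Nkx6-1 window 65.2%. Exact letters of 4 motifs were searched on both strands. The NK2 homeodomain motif TCAAGTG occurred on the minus letters of the Nkx2-2 window and in 2.68% of all windows. Its outermost base lay 197 bases before the start used for that window, which lies inside the gene span. The general homeodomain motif TAATTA (4.84% of windows), the GLI motif GACCACCCA (0.23%) and the TATA motif TATAAA (12.37%) had no match in the 5 windows, which says only that these letters are not there.

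Of the members, Nkx2-4 had the largest measured difference between genotypes and the lower level was in mutants. It lies on chromosome 2 (chr2:147083337-147085439) and encodes a close relative of the hypothalamic regulator Nkx2-1. Its level was 5.67, 5.56 and 5.35 in mutant arrays 11 to 13, and in mutant arrays 1 to 10 the lowest, median and highest were 4.87, 5.52 and 6.19. In WT the lowest, median and highest were 5.91, 6.21 and 6.69. All 3 mutant arrays of the first set thus lay below every WT array, a pattern shown by 0.619% of all clusters (0.536% lay above every WT array). Of the other 10 mutant arrays, 9 also lay below the lowest WT array. Their mean equalled that of the first 3, so they add no evidence of the direction. The means were 5.53 ± 0.35 in mutants (SD, n = 13) and 6.25 ± 0.27 in WT (SD, n = 12), a log2 difference of -0.72 ± 0.20 (SE, 95% interval -1.12 to -0.32), or 0.608 of the WT level. The exact permutation test over every split of the 15 arrays into 3 and 12 gave p = 0.0022, two-sided, the smallest that it can give. In the limma fit over all clusters the unadjusted p was 0.00108 and the adjusted p 0.179 with the batch term, against an adjusted p of 3.19e-04 with genotype alone, so Nkx2-4 was called in the second fit and not in the first. The paper lists Nkx2-4 as lower from these same arrays, so the present difference is no independent result. It also reports lower Nkx2-4 by quantitative PCR and weaker in situ labelling in older mutant embryos, which were not examined here.

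**Figure D1:**
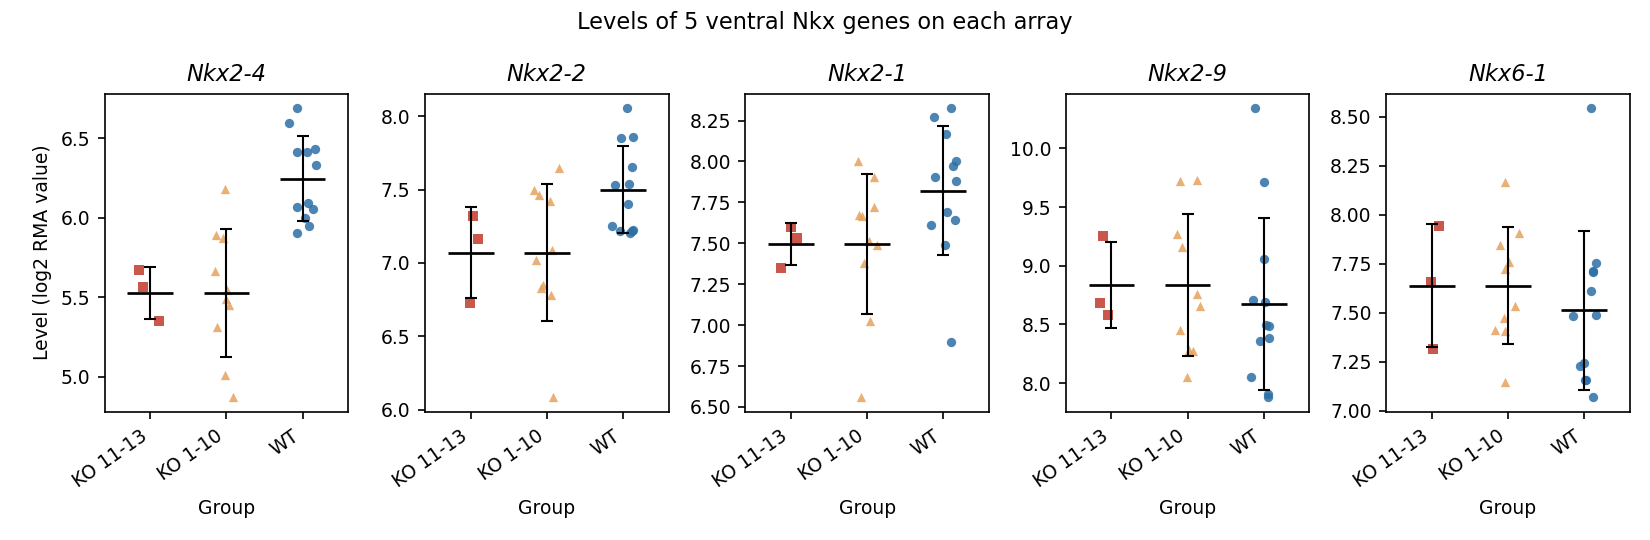
Levels of the 5 measured genes (y axis, log2 RMA value, a scale of its own in each panel) on mutant arrays 11 to 13, mutant arrays 1 to 10 and WT arrays (x axis), with a point per array, a bar at the mean and SD as whiskers. For Nkx2-4 the 3 mutant arrays lie between 5.35 and 5.67, below the lowest WT array at 5.91, and for the other 4 genes the groups overlap.

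Nkx2-2, a regulator of ventral progenitors next to the floor plate, lies on the same chromosome (chr2:147176485-147195434). Its level was 7.32, 6.72 and 7.16 in mutant arrays 11 to 13, against a lowest, median and highest of 7.20, 7.47 and 8.06 in WT, and 2 of the 3 mutant arrays lay below every WT array. Mutant arrays 1 to 10 had 6.08, 7.05 and 7.65 as their lowest, median and highest. The mean was 7.07 ± 0.42 in mutants (SD, n = 13) and 7.50 ± 0.30 in WT (SD, n = 12), and the difference of -0.43 ± 0.23 (SE, 95% interval -0.90 to 0.04) did not pass the limma test with the batch term (adjusted p = 0.523). The exact permutation test gave p = 0.0571, while genotype alone gave an adjusted p of 0.0325 in limma. The groups overlapped, and without mutant array 12 the difference was -0.26 (exact permutation p = 0.33).

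Nkx2-1, the main regulator of ventral hypothalamic identity (chr12:56531935-56536908), showed overlapping groups. Mutant arrays 11 to 13 had 7.60, 7.35 and 7.53, and mutant arrays 1 to 10 had a lowest, median and highest of 6.56, 7.59 and 8.002. WT arrays had 6.90, 7.89 and 8.33. The 3 mutant values lay inside the WT range, whose lowest value came from WT array 10. The means were 7.49 ± 0.37 in mutants (SD, n = 13) and 7.82 ± 0.39 in WT (SD, n = 12), with a difference of -0.33 ± 0.24 (SE, 95% interval -0.81 to 0.16, limma adjusted p = 0.676, exact permutation p = 0.187). Without WT array 10, the difference was -0.41 and the exact permutation p 0.033, in a test that was not planned. The limma adjusted p without that array was 0.483. With any other array left out, the exact permutation p was 0.162 or more.

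The remaining members had means slightly above WT, with intervals that spanned 0. Nkx2-9 (chr12:56611389-56613569), a neighbour of Nkx2-1 on chromosome 12, was at 8.58, 8.68 and 9.25 in mutant arrays 11 to 13, and mutant arrays 1 to 10 ran from 8.06 through a median of 8.71 to 9.73. WT arrays ran from 7.88 through a median of 8.49 to 10.34. Its WT range thus enclosed all mutant arrays. The difference was 0.16 ± 0.39 (SE, 95% interval -0.64 to 0.97, limma adjusted p = 0.928), so a change of nearly 1 log2 unit upward or of 0.64 downward cannot be told from none with these arrays.

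Nkx6-1 (chr5:101659184-101664711), which in the spinal cord specifies motor neuron progenitors, was at 7.66, 7.32 and 7.94 in mutant arrays 11 to 13. Mutant arrays 1 to 10 ran from 7.15 through a median of 7.63 to 8.17, and WT arrays from 7.07 through 7.49 to 8.55. Here too the WT range enclosed all mutant arrays. The difference was 0.13 ± 0.22 (SE, 95% interval -0.32 to 0.57, limma adjusted p = 0.888). The sign of this difference and of that for Nkx2-9 was negative without mutant array 13 (-0.027 for Nkx6-1 and -0.046 for Nkx2-9).

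Of the 5 measured members, 0 were called with the batch term, where 7 of 28940 clusters were called (0.0242%, with 0.0104% lower). At an unadjusted p below 0.05, 1 of 5 was lower and 0 were higher, against 10.3% of all clusters in either direction (4.15% lower and 6.2% higher). With genotype alone, 2 of 5 were called lower (Nkx2-4 and Nkx2-2) and 0 higher, against 16.7% of all clusters in either direction (6.99% lower and 9.68% higher). The members were chosen by name with earlier results of these data known, so these shares are no test of enrichment. The median difference of the members was -0.33 and that of all clusters 0.01. In this bulk tissue fewer cells that express a gene and less transcript per cell cannot be told apart.

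The other Nkx genes act mainly in heart, gut, skeleton and axis. Of 8 listed, 6 were measured, each with a mean below the median level of all clusters. Nkx2-3, Nkx2-5, Nkx2-6 and Nkx6-3 averaged 2.92 to 3.37 in WT, where a lower level in mutants could be hard to see. Nkx1-2 and Nkx3-2 averaged 4.26 and 4.30 in WT, and whether a lower level could be seen there was not tested. Whether the 6 other Nkx genes differ from the ventral members was not tested. Their differences lay between -0.09 and 0.12 except for Nkx3-2, a regulator of skeletal precursors, at 0.37 ± 0.18 (SE, limma unadjusted p = 0.0435, adjusted p = 0.4658). Nkx3-2 averaged 4.68 in mutants and 4.30 in WT. Nkx6-3, the relative of Nkx6-1, had 3.17 in both groups.

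**Figure D2:**
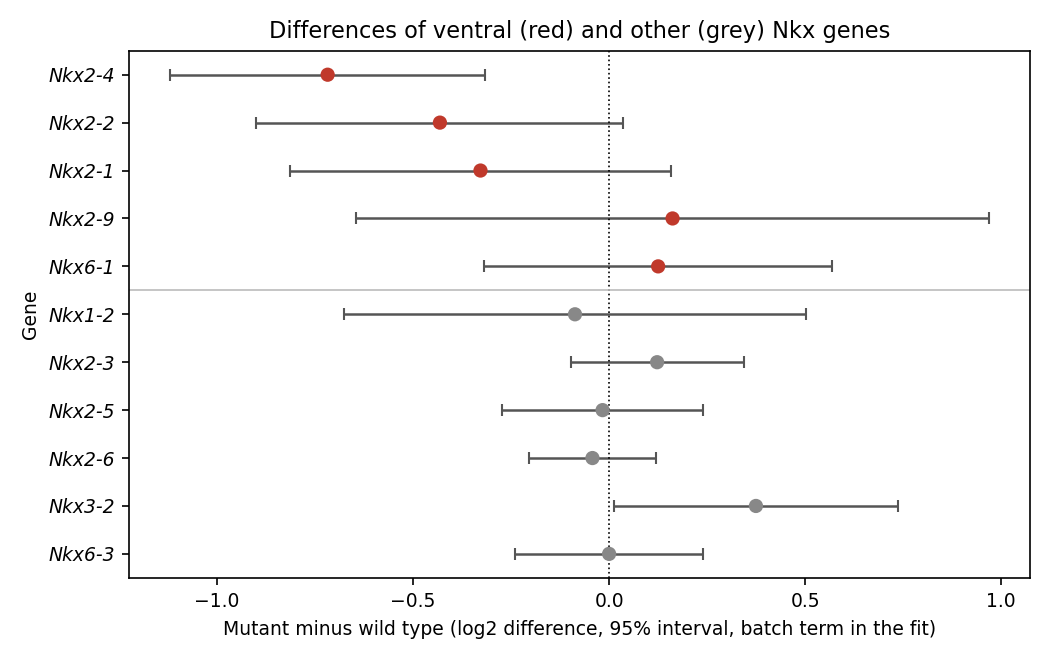
Difference between mutant and WT (x axis, log2 units, with the batch term) with its 95% interval for the 5 ventral Nkx genes in red and 6 other Nkx genes in grey (y axis). The interval of Nkx2-4 (-1.12 to -0.32) lies wholly below 0, and those of the other 4 ventral genes span it.

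Whether members differed from each other between genotypes was tested on their log2 ratio within each array, which removes any offset that an array adds to both genes. All 10 pairs of the 5 members were compared by the exact permutation test, mutant arrays 11 to 13 against WT. The ratio of Nkx2-4 over Nkx2-1 was -1.93, -1.79 and -2.18 in the mutant arrays, against -1.86, -1.60 and -0.99 as the lowest, median and highest of WT, and 2 of 3 mutant arrays lay below every WT array. The difference of -0.39 had p = 0.0110 in the exact test and an adjusted p of 0.110 over the 10 pairs. The ratio of Nkx2-4 over Nkx6-1 differed by -0.84 (exact p = 0.0308, adjusted p = 0.154). No pair passed the adjusted test, and the other 8 had exact p of 0.0571 or more. Thus Nkx2-4 was not shown to differ from the other members in its change.

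Nkx2-1 and Nkx2-4 varied together from array to array within each genotype. Correlations were computed over mutant arrays 1 to 10 and over the WT arrays apart, for 10 pairs in each group, and p-values were adjusted over the 20. Over mutant arrays 1 to 10 (n = 10) the pair had r = 0.85 (permutation p = 0.0016, adjusted p = 0.016) and rho = 0.83 (adjusted p = 0.0422). Over WT arrays (n = 12) it had r = 0.85 (permutation p = 2.4e-04, adjusted p = 0.0048) and rho = 0.92 (adjusted p = 0.0026). The WT relation held without the 2 arrays farthest from the median of Nkx2-1 (r = 0.87, permutation adjusted p = 0.0334). In mutants the same step gave r = 0.75 with a permutation adjusted p of 0.23, so there the call was lost with 2 arrays fewer. It was also lost in mutants once the mean of each sex was removed (r = 0.77, permutation adjusted p = 0.0879), and held in WT (r = 0.84, adjusted p = 0.0066). Both genes are highly related, and the part of shared probe sequence in this correlation was not tested.

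**Figure D3:**
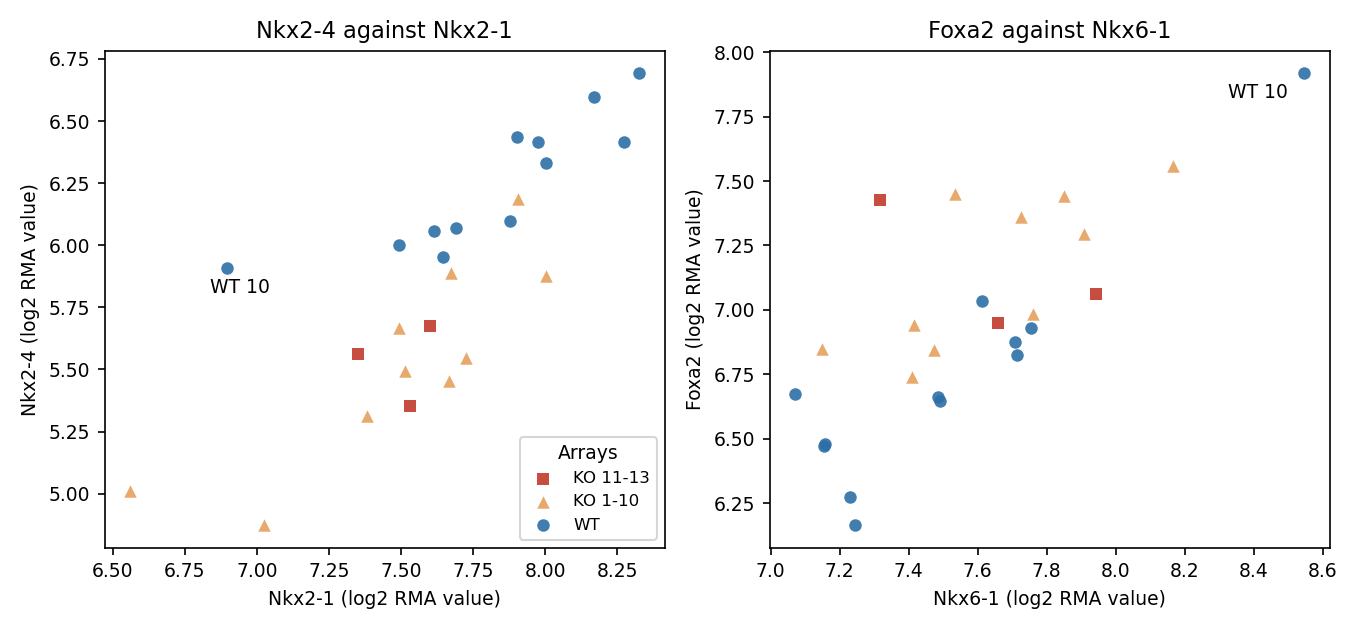
Left, Nkx2-4 against Nkx2-1 on each array (both axes log2 RMA values), and right, Foxa2 against Nkx6-1, for mutant arrays 11 to 13 (squares), mutant arrays 1 to 10 (triangles) and WT (circles). Nkx2-4 follows Nkx2-1 in mutant arrays 1 to 10 and in WT (r = 0.85 in each), and WT array 10 is the highest array for Nkx6-1 and Foxa2. The ratio of Nkx2-4 over Nkx2-1 in mutant arrays 11 to 13 against WT did not pass the adjusted exact permutation test (adjusted p = 0.110).

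Of the 20 tests by r, only the Nkx2-1 and Nkx2-4 pair passed, in each group. Nkx2-2 and Nkx6-1 ran against each other in WT by rank (rho = -0.76, permutation adjusted p = 0.0422), with r = -0.61 (adjusted p = 0.181), and had r = -0.15 in mutant arrays 1 to 10. Of the neighbours on a chromosome, Nkx2-1 and Nkx2-9 on chromosome 12 had r = -0.49 in mutant arrays 1 to 10 and -0.24 in WT, where the sign turned without WT array 10 (r = 0.62, permutation adjusted p = 0.146), and Nkx2-2 and Nkx2-4 on chromosome 2 had r = -0.36 in mutant arrays 1 to 10 and 0.10 in WT. The sign was the same in both groups for 4 of the 10 pairs. Differences between the groups in r were not tested.

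Regional genes were then set against the members, with Shh as the inducing signal, Foxa2 for the floor plate, Pax6 for the opposing dorsal domain and Rax for the hypothalamus (40 correlations in the family). In mutant arrays 1 to 10, 0 of 20 passed the adjusted permutation test, and in WT 6 of 20 did. With the means of each sex removed, 2 relations passed in mutant arrays 1 to 10, Nkx2-4 with Shh (r = 0.78, permutation adjusted p = 0.0395) and Nkx6-1 with Foxa2 (r = 0.76, adjusted p = 0.0491), and the second also passed after a repeated quantile normalization (r = 0.78, permutation adjusted p = 0.0465). Rax, a homeobox gene of the hypothalamic and eye fields, ran with Nkx2-1 (r = 0.61 in mutant arrays 1 to 10, and r = 0.86 in WT, where the permutation adjusted p was 0.0068) and with Nkx2-4 (r = 0.58 in mutant arrays 1 to 10, and r = 0.81 in WT, adjusted p = 0.0191). Nkx6-1 ran with Foxa2 (r = 0.76 in mutant arrays 1 to 10, permutation adjusted p = 0.0648, and r = 0.91 in WT, adjusted p = 0.0096). Nkx2-9 ran with Shh in WT (r = 0.73, permutation adjusted p = 0.0346) and not in mutant arrays 1 to 10 (r = -0.07). Pax6 ran against Nkx6-1 (r = -0.69 in mutant arrays 1 to 10, permutation adjusted p = 0.113, and r = -0.84 in WT, adjusted p = 0.033) and, in WT, against Nkx2-9 (r = -0.79, adjusted p = 0.033). In WT the rank correlations passed for Nkx2-1 and Nkx2-4 with Rax and Nkx2-9 with Shh (permutation adjusted p = 0.0452 for each), and not for the 3 relations of Nkx6-1 and Nkx2-9 with Foxa2 or Pax6 (0.0777 each). Without the 2 farthest arrays the relation of Nkx6-1 with Foxa2 in WT passed (r = 0.87, permutation adjusted p = 0.0494). The other 5 had r between 0.61 and 0.73 in size with a permutation adjusted p of 0.18 to 0.239, so they no longer passed with 2 arrays fewer. Nkx2-1 with Shh in WT, at r = 0.33 over all WT arrays, also passed in this setting (r = 0.84, permutation adjusted p = 0.0494).

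**Figure D4:**
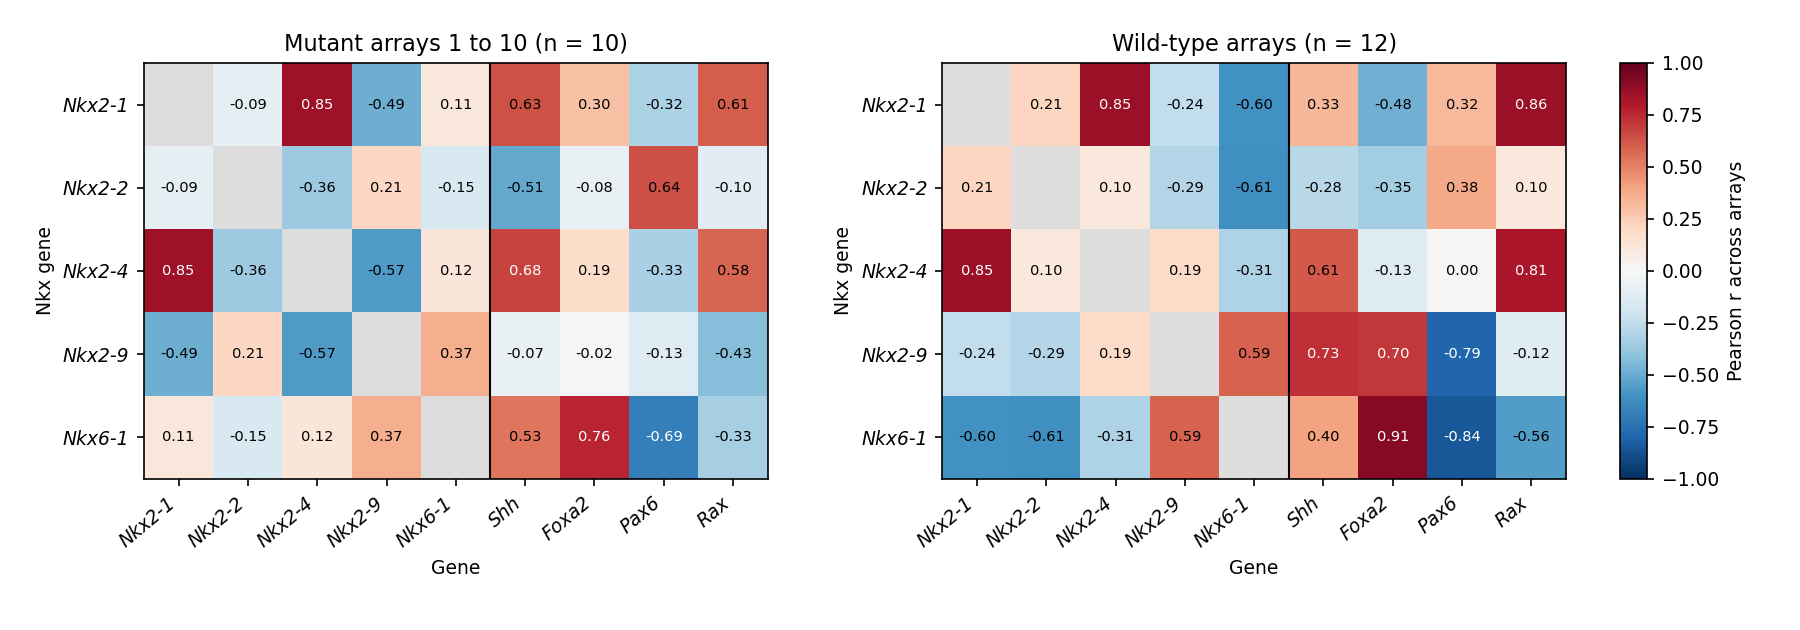
Pearson r across mutant arrays 1 to 10 (left) and WT arrays (right) of each ventral Nkx gene (rows) with the other members and with Shh, Foxa2, Pax6 and Rax (columns), blue below 0 and red above. Nkx2-1 with Nkx2-4 has r = 0.85 in each group, and Nkx6-1 with Foxa2 has r = 0.76 in mutant arrays 1 to 10 and 0.91 in WT.

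A single array, WT array 10, stood apart in the WT relations. It had the highest level of all 25 arrays for Nkx2-9 (10.34), Nkx6-1 (8.55) and Foxa2 (7.92), and the lowest in WT for Nkx2-1 (6.90) and Nkx2-4 (5.91). The other 11 WT arrays lay between 7.88 and 9.71 for Nkx2-9 and between 7.07 and 7.75 for Nkx6-1. The midbrain floor list (9 genes measured) averaged 7.09 on this array, the highest of all, and the hypothalamic list 5.75, the lowest of WT. Without it, in a setting added after seeing the data, Nkx2-4 with Nkx2-9 in WT had r = 0.77 (permutation adjusted p = 0.0263), against 0.19 with it, and Nkx2-1 with Shh had r = 0.88 (permutation adjusted p = 0.0148), against 0.33 with it. Nkx6-1 with Foxa2 had r = 0.75 (permutation adjusted p = 0.0645), Nkx6-1 with Pax6 r = -0.56 (adjusted p = 0.191), Nkx2-9 with Pax6 r = -0.52 (adjusted p = 0.223) and Nkx2-4 with Rax r = 0.78 (adjusted p = 0.0506), all 4 past the threshold with the array and not without it. Nkx2-4 with Shh passed without it (r = 0.85, permutation adjusted p = 0.0252), against r = 0.61 with it. Nkx2-1 with Nkx2-4 kept r = 0.90 (permutation adjusted p = 0.0048).

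The genes most like each member were taken as those with the highest value of the smaller r, over mutant arrays 1 to 10 and over WT, among 10671 genes above the median level, and are given as a description. For Nkx2-1 these were Nkx2-4 (0.85), the orphan receptor gene Gpr50 (0.83) and the adaptor gene Shb (0.78). For Nkx2-4 they were the adaptor gene Stap2 (0.87), Nkx2-1 (0.85) and Phf13 (0.72). Gpr50 had 6.96 in mutants and 8.75 in WT, a difference of -1.79 ± 0.53 (SE, limma adjusted p = 0.222), whereas Stap2 differed by 0.10 ± 0.10.

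Nkx2-2 was most like Sp9 (0.85), Macir (0.84) and Dlx2 (0.76), where Sp9 and Dlx2 encode transcription factors of ventral forebrain neurons. Sp9 had 4.73 in mutants and 5.90 in WT (-1.18 ± 0.29, SE, limma adjusted p = 0.145), and Dlx2 6.82 in mutants and 8.01 in WT (-1.18 ± 0.43, adjusted p = 0.307). Neither was called, and Macir differed by -0.07 ± 0.12. Nkx2-9 was most like the stress-response factor Atf3 (0.79), the myosin kinase gene Mylk (0.74) and Gpam (0.72). Nkx6-1 was most like the midbrain homeobox gene En2 (0.80), Foxa2 (0.76) and A2m (0.76).

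The Shh pathway, which acts upstream of the members, showed 0 genes past an unadjusted p of 0.05 among 8 of 10 listed ligand, receptor and release genes and 0 among 6 effectors. Shh had 9.50 in mutants and 9.31 in WT (0.19 ± 0.17, SE), Ptch1, its receptor and a target of the pathway, 10.10 in mutants and 10.11 in WT (-0.01 ± 0.07), and Hhip, a secreted inhibitor and target, 5.99 in mutants and 6.30 in WT (-0.31 ± 0.17). With genotype alone Hhip was called lower (limma adjusted p = 0.0402), the only gene of these 2 lists called in that fit. The GLI factors that carry the signal to the nucleus differed by -0.11 ± 0.11 (Gli1), -0.17 ± 0.14 (Gli2) and -0.08 ± 0.18 (Gli3). The medians of the lists were -0.04 for ligand and receptor genes and -0.09 for effectors, against 0.01 for all clusters. None of the 8 measured of 9 corepressor genes passed either (median -0.09).

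Of the genes that share the ventral domain with the members, 7 of 9 listed were measured and 0 were called. At an unadjusted p below 0.05, 2 were lower and 2 higher, against shares of 4.15% and 6.2% over all clusters, and the median was 0.33. The list was chosen with earlier results of these data known, so these counts are no test of enrichment. Olig2, a basic helix-loop-helix factor of ventral progenitors, averaged 5.96 in mutants and 6.97 in WT (-1.02 ± 0.40, SE, limma adjusted p = 0.35), and its paralogue Olig1 3.82 in mutants and 4.92 in WT (-1.10 ± 0.34, adjusted p = 0.238). The floor plate genes Foxa1 (0.47 ± 0.20, limma adjusted p = 0.418) and Lmx1b (0.34 ± 0.13, adjusted p = 0.35) had the higher means in mutants. Foxa1 lies near Nkx2-1 and Nkx2-9 on chromosome 12.

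Of 11 opposing and dorsal regulators, 2 were lower at an unadjusted p below 0.05 and 0 were higher (median -0.15). The shares over all clusters were 4.15% lower and 6.2% higher. This list too was chosen with earlier results of these data known. Gsx2, a regulator of lateral forebrain progenitors, differed by -0.97 ± 0.37 (SE, limma adjusted p = 0.334) and Dbx1, a regulator of intermediate progenitors, by -0.40 ± 0.16 (adjusted p = 0.376). Pax6 averaged 7.30 in mutants and 8.03 in WT (-0.73 ± 0.55), with a WT range of 5.72 to 9.10.

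**Figure D5:**
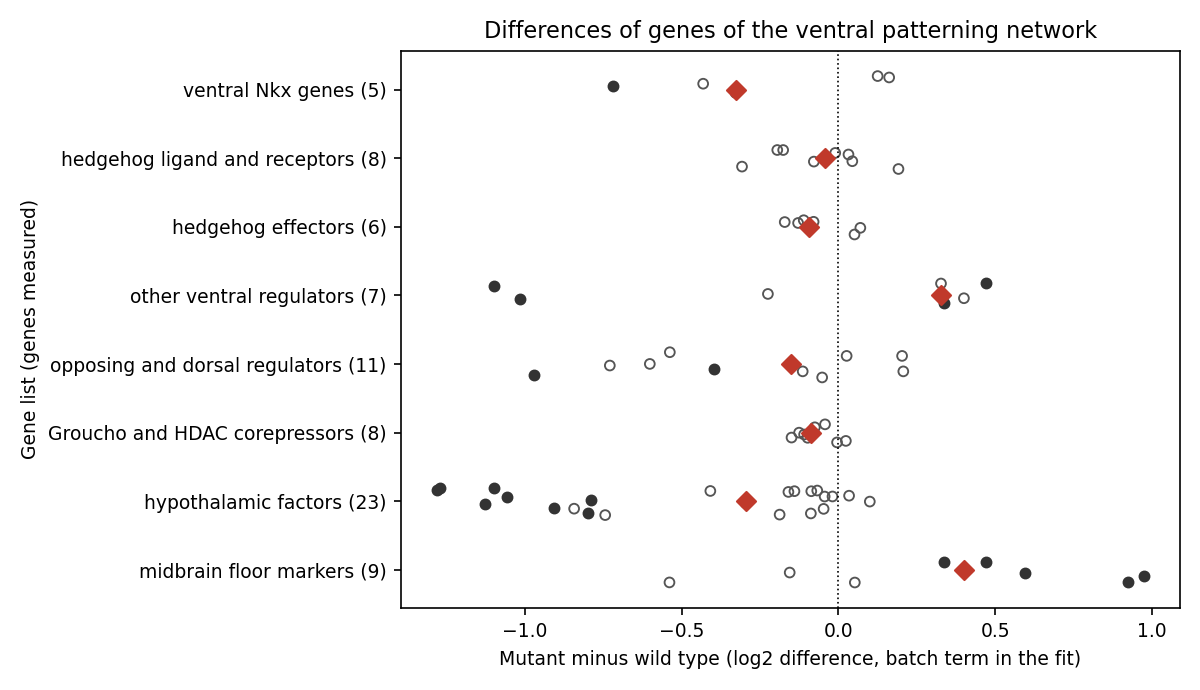
Difference between mutant and WT (x axis, log2 units, with the batch term) of each measured gene in 8 lists (y axis, number of genes in parentheses), filled where the unadjusted limma p was below 0.05, with the list's median as a red diamond. The hedgehog lists have medians of -0.04 and -0.09 and no filled gene. In contrast, 8 of 23 hypothalamic factors are filled below 0 and 5 of 9 midbrain floor markers above 0. The lists were chosen with earlier results of these data known, so these counts are no test of enrichment.

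Markers of other regions were set beside the members, and 0 were called with the batch term in the hypothalamic and midbrain floor lists. With genotype alone, 9 hypothalamic genes were called lower and 6 midbrain floor genes higher. Of 24 hypothalamic factors 23 were measured, with 8 lower and 0 higher at an unadjusted p below 0.05 (median -0.30). The shares over all clusters were 4.15% lower and 6.2% higher. The list was chosen with earlier results of these data known. All 8 genes are among the lower genes that the paper lists from these arrays, so the excess is no independent test. The smallest p was that of the forkhead gene Foxb2, which averaged 4.76 in mutants and 5.89 in WT (-1.13 ± 0.21, SE, limma adjusted p = 0.0546), followed by the homeobox gene Barhl1 at 6.38 in mutants and 7.17 in WT (-0.79 ± 0.22, adjusted p = 0.179). Rax averaged 5.23 in mutants and 6.50 in WT (-1.27 ± 0.39, SE, limma adjusted p = 0.242) and the forebrain gene Six3 5.66 in mutants and 6.72 in WT (-1.06 ± 0.29, adjusted p = 0.179). Of 10 midbrain floor markers 9 were measured, with 5 higher and 0 lower (median 0.40), against shares of 6.2% and 4.15% over all clusters. This list too was chosen with earlier results known. The paper lists Corin, Ferd3l and Wnt5a as higher from these arrays, so the excess is no independent test. The 5 were Corin (0.98 ± 0.33, SE, limma adjusted p = 0.274), the transcription factor gene Ferd3l (0.92 ± 0.32, adjusted p = 0.275), Wnt5a (0.59 ± 0.22, adjusted p = 0.323), Lmx1b and Foxa1. The others did not share this direction throughout: Foxa2 was at 0.40 ± 0.23, the homeobox gene Pitx3 of dopaminergic neurons at 0.05 ± 0.10, the midbrain homeobox gene En1 at -0.16 ± 0.35, and Th, the dopamine synthesis enzyme, at -0.54 ± 0.32 (exact permutation p = 0.0571). The mean level of this list ran from 6.54 to 6.80 in mutant arrays 11 to 13, from 6.14 to 6.93 in mutant arrays 1 to 10 and from 5.98 to 7.09 in WT. Whether a different share of hypothalamic and midbrain floor tissue in the dissections had a part in the differences of the members was not tested.

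The remaining lists had few genes at an unadjusted p below 0.05, where the shares over all clusters were 4.15% lower and 6.2% higher. There was 1 lower gene each among telencephalic (6 measured, Lhx2) and progenitor (10, Sox1) markers, and 1 higher gene each among notochord (4, Foxj1), hindbrain and cord (8, Hoxa3) and foregut and thyroid (10, Foxe1) markers, the last of which share Nkx2-1. There were 0 among markers of thalamus and pretectum, oral ectoderm and pituitary, mesenchyme and crest, endothelium, erythroid cells, macrophages and neurons. Means were higher in mutants for 8 of 8 endothelial, 5 of 5 erythroid and 10 of 11 mesenchyme and crest genes. They were lower for 6 of 6 neuronal genes, and the rest of these lists held both directions. With genotype alone, 2 endothelial genes and 1 mesenchyme and crest gene were called higher. Whether the make-up of the tissue differed was not tested. The foregut and thyroid list averaged 3.80 to 3.96 in mutant arrays 11 to 13, 3.68 to 4.35 in mutant arrays 1 to 10 and 3.61 to 4.04 in WT.

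The genes next to the members on their chromosomes were looked at in the same fit. Of 30 neighbours, 5 on either side of each member, 5 had an unadjusted p below 0.05, 4 lower and 1 higher. The share of all clusters was 10.3% in either direction (4.15% lower and 6.2% higher). Of the neighbours, 0 were called, and their median difference was 0.03. Beside Nkx2-4 and Nkx2-2, the centrosomal gene Kiz averaged 6.14 in mutants and 6.41 in WT (-0.27 ± 0.08, SE, limma adjusted p = 0.235). The others were Mbip (-0.19 ± 0.08) and Ralgapa1 (-0.16 ± 0.07) on chromosome 12, Abraxas1 (-0.17 ± 0.08) on chromosome 5, and Foxa1.

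The spread of the members over arrays is given as a description. The SD over mutant arrays 1 to 10 was 1.57 times that of WT for Nkx2-2, 1.52 times for Nkx2-4 and 1.09 times for Nkx2-1, and 0.73 times for Nkx6-1 and 0.83 times for Nkx2-9. Without WT array 10, in a setting added after seeing the data, the ratio was above 1 for each member, at 1.54 for Nkx2-1, 1.14 for Nkx2-9 and 1.17 for Nkx6-1. These ratios were not tested, so no difference in spread between genotypes is shown. The sexes, read from Xist and Y-linked transcripts, were unevenly spread, with 2 females and 1 male among mutant arrays 11 to 13, 3 females and 7 males among mutant arrays 1 to 10 and 8 females and 4 males in WT. Of 10 exact permutation tests of male against female, Nkx2-4 in mutant arrays 1 to 10 had the smallest p (5.34 in males and 5.98 in females, p = 0.0167, adjusted p = 0.167), while in WT it was 6.44 in males and 6.15 in females (exact p = 0.0747, adjusted p = 0.249). No test of sex passed after adjustment.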

How the data were processed

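Per the labels, total RNA of mammillary neuroepithelium was amplified, labelled with biotin and hybridised to arrays. The authors deposited log2 values made by RMA (background correction, quantile normalization and summary of probes), and the submitters' processing notes name Affymetrix Expression Console 1.0, affy and R 2.7.0. No batch adjustment is given in the sources used here. In the deposited table of 35556 probe sets, 14 cells above 14 were set missing, 0 of them in the members, and 6616 unannotated probe sets were left out. Of single-symbol clusters, 99.8% matched GRCm38.p6 by Entrez number, and the brightest stood for a gene. Fits used limma 3.58.1 (R 4.3.3) with Benjamini-Hochberg adjustment over 28940 clusters, called below 0.05, two-sided, and were tested on simulated data. Exact tests used every split into 3 and 12 arrays, and correlations 100000 permutations (SciPy 1.17.1). The 15 planned pairs became 10 without Nkx6-2. The number of arrays limits the precision.

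Named were the members, other Nkx genes, up to 4 genes of each list with the smallest p, 5 neighbours on each side, the 3 genes most like each member and Lhx5. Further genes of the hedgehog and hypothalamic lists (Ptch1, Gli1 to Gli3, Foxb1, Nr5a1, Hmx2, Hmx3) were added for their roles, and the remaining midbrain floor markers after their values were seen. The members and lists were chosen with earlier results of these data known. Alternatives were genotype alone, the 15 arrays alone, other normalizations, a filter on dim clusters, array weights, a variance trend, a replicate block, sex and each array left out.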

Additional observations from a re-analysis of the deposited data

How the results depend on the processing

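Nkx2-4 kept its direction under every setting tried, at -0.76 to -0.66 under other settings and -0.79 to -0.63 with each array left out. It passed the adjusted limma test with genotype alone only (-0.72, adjusted p = 3.19e-04), a fit that was not repeated with arrays left out. In the fit with the batch term, Nkx2-4 had an adjusted p of 0.132 to 0.651 with an array left out (0.179 with all arrays). Its exact permutation p, 0.0027 to 0.0110 with an array left out, was in each case the smallest that the remaining arrays can give and so says nothing about stability. Nkx2-2 passed with genotype alone (-0.43, adjusted p = 0.0325) and ran from -0.56 to -0.26 with an array left out. There its exact permutation p fell below 0.05 for 4 of 15 arrays (0.033 to 0.33). With mutant arrays 11 to 13 and WT alone, the limma SE of Nkx2-4 was 0.15 (unadjusted p = 1.7e-04, adjusted p = 0.128). That of Nkx2-2 was 0.18 (limma unadjusted p = 0.0254, adjusted p = 0.378). Nkx2-1 ran from -0.41 to -0.26, Nkx2-9 from -0.046 to 0.31 and Nkx6-1 from -0.027 to 0.29, the lowest values of the last 2 being those without mutant array 13, where the exact-test differences turned to the same values. The count of called clusters, 7 with the batch term, was 4825 with genotype alone, 1 after a repeated quantile normalization, 12 after centring, 4 without dim clusters, 31 with array weights and 0 to 26 with an array left out (0 without mutant array 13, 26 without WT array 10). Without mutant array 13, 1942 clusters had an unadjusted p below 0.05. Correlations between members past the threshold numbered 2, against 1 without the 2 farthest arrays and 1 with the means of each sex removed. The genes have 1 cluster each, so no other cluster could be tried. The cause of these changes was not tested.

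The labels' replicate numbers were treated as names and not as pairs. Arrays with the same number (12 numbers) correlated between -0.33 and 0.43, 4 above 0.1, and 0 samples correlated best with their own number. With the replicate block and the batch term, 0 clusters were called (2354 at an unadjusted p below 0.05), Nkx2-9 turned to -0.58, and Nkx2-4 was at -0.76 (adjusted p = 0.544), Nkx2-2 at -0.51, Nkx2-1 at -0.50 and Nkx6-1 at 0.09.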
